A study of Drosophila melanogaster with 12 samples.

Results

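Male and female L3 larvae that lack CLAMP were compared with each other in 6 of the 12 RNA-seq libraries of the study. The null larvae were yw; clamp2, where clamp2 is a recessive null allele of Clamp, and they gave 3 male libraries (null males 4, 5 and 6) and 3 female libraries (null females 4, 5 and 6). The 6 control libraries were yw larvae of the same stage, 3 male and 3 female, and are set beside the null larvae only where they show a difference. Each library was made from 3 whole L3 larvae, the last larval stage, so every tissue of the animal contributed to it and no finer stage was given. The paper states that males homozygous for clamp2 die before late L3. It gives this as the reason why splicing could not be measured in null male larvae. It also reports RNA-seq of null male L3 larvae, whose age within L3 is not stated. Libraries were chosen by the genotype and the sex in their titles. A separate sex entry in the labels contradicts the titles, since it does not vary within a genotype, and it was set aside. Expression is the transcript abundance in TPM, which is relative to all transcripts of a library, summed per gene. Of 13771 genes, 9676 averaged 1 TPM or more over the 6 null libraries and were compared.

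CLAMP is a zinc finger protein that binds GA-rich repeats. In males it helps to bring the MSL dosage compensation complex to the X chromosome, which raises transcription of the single male X. Sex in the soma is set by a cascade of splicing in which Sxl protein is made in females, directs female splicing of tra, and through it female splicing of dsx and fru, while Sxl blocks the production of MSL-2. In whole L3 larvae the largest sex difference in RNA is usually the testis, which by then holds spermatocytes, whereas the ovary is still small. RNA of whole larvae cannot tell fewer cells of a type from less RNA per cell.

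Null male 6 stood apart from all other null libraries before any comparison of the sexes. Across genes, its log2(TPM + 1) values had a Pearson correlation of 0.869 to 0.895 with the other 5 null libraries, which had 0.957 to 0.965 among themselves. Null males 4 and 5 had a correlation of 0.957 with each other and of 0.958 to 0.965 with the null females, so these 2 males were no closer to each other than to the females. Null male 6 held 10339 genes at 1 TPM or more, against 8665 to 9300 in the other null libraries. The RNA of null males 4 and 5 gave no firm check of their labelled sex, since few genes with a sex difference in controls set them apart from the null females, most of them at low levels. The results that rest on null male 6 are given with and without it. The number of reads is unknown, because TPM keep no depth.

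Clamp itself was read in every null library, at 22.8, 21.4 and 21.9 TPM in null males 4, 5 and 6 and at 19.4, 16.2 and 20.04 TPM in null females 4, 5 and 6. The controls held 36.3 to 59.2 TPM. All null values lay below all control values. The null males lay just above the null females, and the difference was not called (log2 difference 0.24 ± 0.27 SE, limma adjusted p = 0.987). Part of the RNA was thus still made, and its level alone does not check the protein.

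Almost no gene was called as different between the sexes in the null larvae. Of 9676 genes tested with limma on log2(TPM + 1), 1 (0.0103%) was called at an adjusted p under 0.05, and 289 (2.99%) had an unadjusted p under 0.05. The same test called 3426 of 11239 genes (30.5%) between control males and control females, of which 3121 (27.8%) were higher and 305 (2.71%) lower in males. With libraries rescaled by the median of ratios, which lowered the median difference of all control genes from 0.36 to 0.09 on the log2 scale, these were 2473 and 659 genes. The median size of the sex difference was 0.28 in null larvae and 0.52 in controls, while the spread was larger in the null larvae, with a median standard error of 0.39 against 0.27. Values of the null sexes did not overlap for 720 genes (7.44%), against 5070 genes (45.1%) in controls. A test of the change itself, the sex difference in null less that in control larvae, called 1639 of 11145 genes (14.7%). In 1584 of them (14.2%) the male minus female value was lower in null than in control larvae and in 55 (0.493%) it was higher. This count moved between 416 and 2895 with the pseudocount, the filter and the weighting of libraries. Without null male 6, 2 of 9171 genes (0.0218%) were called in the null larvae and 2105 genes for the change.

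The gene called in the null larvae was BaraA2 (chr2R:13407011-13408358, BDGP6.54), a member of the Baramicin family, which encodes precursors of secreted immune peptides. It was listed at 0 TPM in all 3 null males and in all 6 control libraries. Null females 4, 5 and 6 held 262, 362 and 212 TPM (279 ± 76.6, SD, n = 3), and the limma adjusted p was 1.2e-05. BaraA2 was therefore read in the null females alone among the 12 libraries.

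BaraA2 has a near copy, BaraA1, which starts 3380 bases downstream of its end on the same strand, and reads that match both can be assigned to either. BaraA1 was read at 243, 194 and 11.5 TPM in null males 4, 5 and 6 and at 0, 418 and 330 TPM in null females 4, 5 and 6. It did not separate the sexes. The sum of the 2 genes was 243, 194 and 11.5 TPM in the null males and 262, 781 and 542 TPM in the null females, against 5.79 to 13.8 TPM in the controls. The highest male sum lay just below the lowest female sum. In null female 4 all of the signal was given to BaraA2 and in the null males all of it to BaraA1, so the split between the copies is uncertain, and the call on BaraA2 rests on that split.

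**Figure D1:**
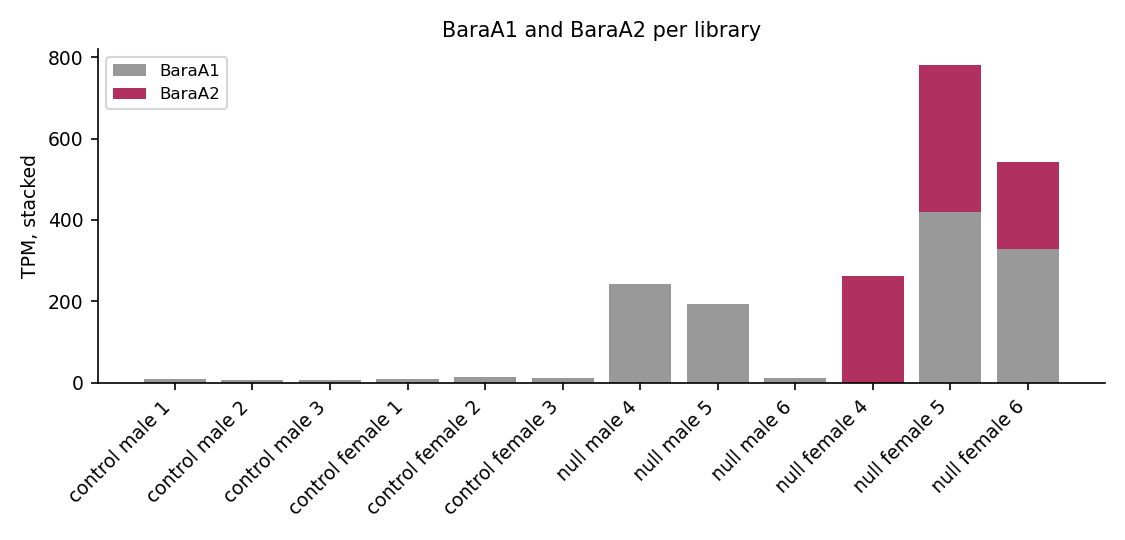
TPM of BaraA1 (grey) and BaraA2 (red), stacked, in each of the 12 libraries. BaraA2 appears only in the 3 null females, at 262, 362 and 212 TPM, while the null males and the controls hold BaraA1 alone.

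The genes that differed between control males and control females were followed into the null larvae. They were called without any null library, but the null expression filter then kept only part of them. Of the 3121 genes higher in control males, 1854 passed the expression filter in the null larvae. Some of the 1854 passed only through null male 6, so the medians below that include this library were partly set by the filter. None of these 1854 was called between the null sexes by limma, and 68 had an unadjusted p under 0.05. Their median log2 difference was 1.45 in controls and 0.30 between the null sexes. Once null male 6 was left out the median was 0.03, over the fewer of these genes that still passed the filter. Set against the mean of the null females, the median over these genes was -0.02 in null male 4, 0.06 in null male 5 and 0.72 in null male 6, while the null females themselves lay between -0.14 and 0.10. Null males 4 and 5 thus lay within the range of the females. The genes higher in control males had values that did not overlap between the null sexes in 7.98% of cases, beside 7.41% of all genes tested in both comparisons. Of the 305 genes lower in control males, 294 passed the filter, none was called and 9 had an unadjusted p under 0.05. Their median difference was -1.02 in controls and -0.05 between the null sexes. The test of the change was called with a smaller difference in null larvae for 641 of the 1854 male-high genes, 41 of the 294 female-high genes and 712 of all 9302 genes tested in both. That test uses the control values by which the genes were chosen, so these counts are a description only.

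**Figure D2:**
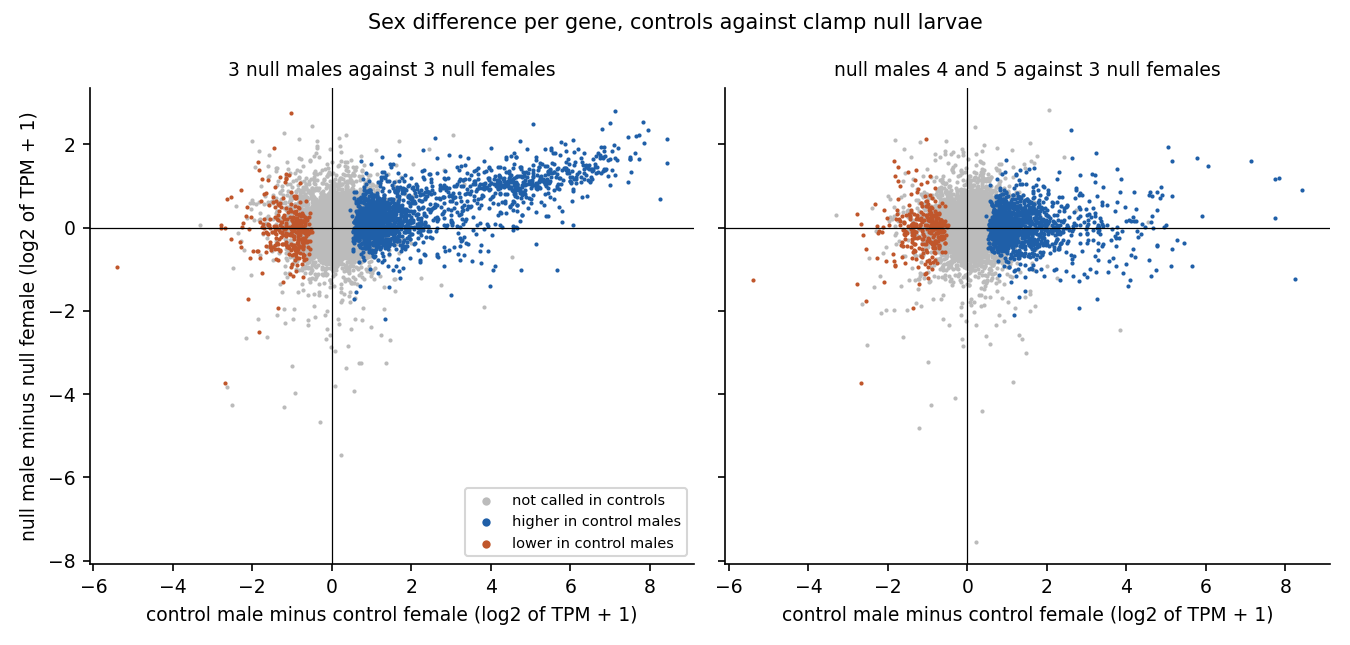
Each point is a gene, with its male minus female difference on log2(TPM + 1) in controls (x axis) and in null larvae (y axis), for all 3 null males (left, 9302 genes) and for null males 4 and 5 alone (right, 8781 genes). The arm of genes higher in control males (blue) that rises to about 2 on the y axis on the left is not seen on the right. Genes that passed the expression filter only through null male 6, part of that arm, are absent from the right panel.

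A single gene was read in control females alone, with at least 5 TPM in each control female and under 0.5 TPM in each control male. It was CG43182, on the X (chrX:353067-353317). Its level was 32.0, 60.7 and 35.7 TPM in control females and 0 in all 3 control males. In the null larvae it was read in both sexes, at 17.0, 8.42 and 23.6 TPM in null males 4, 5 and 6 and at 14.5, 57.8 and 32.4 TPM in null females 4, 5 and 6. The null sexes overlapped, and the change of the sex difference was called (limma adjusted p = 0.00121). Null male 6 was the highest of the null males and lay within the range of the null females.

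Among other genes whose sex difference changed toward males in null larvae, CG4362 was at 81.4 to 159 TPM in control males and 222 to 278 TPM in control females, but at 78.3, 26.1 and 165 TPM in null males 4, 5 and 6 against 8.39, 4.83 and 20.5 TPM in null females. The order of the sexes was thus opposite in the 2 genotypes (limma adjusted p of the change = 0.00885). AsnS, which encodes asparagine synthetase, was at no more than 11.2 TPM in control males and 24.6 to 101 TPM in control females, and its null values of 18.2 to 39.3 TPM in males and 22.0 to 30.5 TPM in females overlapped (adjusted p of the change = 0.0125). CG10962, CG7798 and LysS, the last a lysozyme of the gut, were the other 3 of the 6 largest changes in this direction, with adjusted p of 0.0107, 0.00549 and 0.0379.

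Toward females, the 6 largest changes were in BaraA2, in 3 genes that were far higher in all control males than in any control female and in 2 genes that were higher in every control male, with a wide spread among them. Mst84Da, which encodes a protein of the sperm tail, fell from 182, 307 and 505 TPM in control males to 0, 0 and 53.4 TPM in null males 4, 5 and 6 (adjusted p of the change = 0.0101). CG31226 and CG46059 followed the same order, at 471 to 747 and 283 to 451 TPM in control males, 0 in null males 4 and 5, and 72.8 and 49.8 TPM in null male 6. The gene e, which encodes the enzyme that links beta-alanine to dopamine in the tanning of cuticle, was at 9.55, 408 and 102 TPM in control males 1, 2 and 3, and CG7924 was at 15.6, 730 and 363 TPM. All 3 control males lay above every other library of the series, which held under 5 TPM of both genes, and the control males differed widely among themselves.

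Of the 12 genes named on the female side for the smallest p without overlap, BaraA2, Dro, AttA, Tsf1, BomBc1 and Dso1 have roles in immunity, and none of them but BaraA2 was called. Dro, which encodes the antimicrobial peptide drosocin, was at 14.5, 3.81 and 23.1 TPM in null males 4, 5 and 6 and at 85.4, 1059 and 151.8 TPM in null females 4, 5 and 6 (log2 difference -4.31 ± 0.92 SE, limma adjusted p = 0.987). AttA, an attacin, was at 5.72, 5.51 and 0 TPM in males and 24.0, 54.0 and 26.8 TPM in females (adjusted p = 0.987). Null female 5 held the highest value of both. Tsf1, a transferrin that binds iron in the haemolymph and is raised on infection, was at 282, 471 and 193 TPM in null males and 770, 884 and 845 TPM in null females (-1.49 ± 0.34 SE, adjusted p = 0.987). Its groups lay further apart than their own spread, at 315 ± 142 and 833 ± 58.2 TPM (SD, n = 3), yet the test over 9676 genes did not call it.

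Of the 15 listed antimicrobial and recognition genes, all 15 were tested, none was called and 6 had an unadjusted p under 0.05. In 12 the male minus female value was negative, and in 5 all null males lay below all null females (background over all genes 2.45%). The list's median difference was -2.20, against 0.01 over all genes tested, and -1.32 without null male 6. Null male 6 was the lowest of the 6 libraries in 9 of the 15 genes, where it was the lowest in 23.1% of all genes. Drs, the antifungal peptide drosomycin, was at 234, 74.8 and 43.1 TPM in null males 4, 5 and 6 and 309, 968 and 330 TPM in null females, without overlap. PGRP-SC1a, a peptidoglycan-degrading amidase, did not follow this order, at 1939, 760 and 1013 TPM in null males and 1327, 645 and 1164 TPM in null females. The Bomanin and Daisho genes, which encode short peptides made by the fat body under Toll signalling, were added after their values had been seen. Of 14, 13 were tested and none was called. All 13 differences were negative, with a median of -2.20 and -1.97 without null male 6. BomBc1, BomS4 and BomT1 were listed at 0 in all null males and passed the expression filter through null females alone, which fixed their sign. Their summed level was 379, 294 and 137 TPM in null males 4, 5 and 6 and 476, 2443 and 1222 TPM in null females 4, 5 and 6. The lowest female, number 4, lay close to the highest male. Dso1 gave 67.0, 36.5 and 24.2 TPM in males and 97.9, 551 and 251 TPM in females.

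The remaining genes of lowest p among those without overlap were mostly of unknown function. CG42486 was listed at 0 in all null males and all control males and was read at 8.88, 8.48 and 23.6 TPM in null females and at 3.76, 13.6 and 2.78 TPM in control females. It was not called in the null larvae (limma adjusted p = 0.132) but was called with libraries weighted or with all 12 libraries in the fit, and it was called in the controls (adjusted p = 0.00449). It was thus listed at 0 in all 6 libraries labelled male, null male 6 included, and read in all 6 labelled female. CG17105 was read at 558 to 1257 TPM in the controls and at 1.65, 3.05 and 0 TPM in null males against 10.3, 33.4 and 457 TPM in null females. BomBc1 was at 0 in all null males and at 1.71, 5.85 and 8.98 TPM in null females. CG14143, CG32071, CG4757 and CG32074 completed the 12 on this side, with adjusted p of 0.987 each.

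On the male side, l(3)neo43 was at 24.955, 24.9 and 54.6 TPM in null males and 8.05, 6.05 and 4.83 TPM in null females (log2 difference 2.22 ± 0.38 SE, limma adjusted p = 0.949). CG4456 was at 24.7, 15.01 and 51.0 TPM in males and 6.48, 5.63 and 6.41 TPM in females, and Acyp2, an acylphosphatase, at 13.3, 22.7 and 11.2 TPM in males and 3.75, 2.44 and 6.26 TPM in females. Mpv17, which encodes a protein of the inner mitochondrial membrane, was at 29.5, 24.6 and 26.7 TPM in males and 8.50, 11.97 and 16.4 TPM in females. None of these was called, at adjusted p of 0.987. CG42537 was at 2.48, 6.47 and 2.47 TPM in null males and listed at 0 in all null females, and control males held 6.49 to 13.7 TPM against 0 to 2.94 TPM in control females. It was called in the controls (adjusted p = 0.0106) and not in the null larvae (0.987). CG7916, CG34198, CG43316 and CG13926, together with CG4362, CG10962 and CG7798 above, made up the 12 on this side.

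Leaving out null male 6 added nol to the calls. It was at 7.04 and 0 TPM in null males 4 and 5 and 547, 863 and 319 TPM in null females 4, 5 and 6 (limma adjusted p = 0.0148 without null male 6). Null male 6 held 224 TPM, between the other males and the females, and with it the adjusted p was 0.987. Control libraries of both sexes held 6.21 to 84.3 TPM.

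The genes of the sex determination pathway did not separate the null sexes. Of 14 listed genes, 11 were tested and none was called, with a median difference of 0.04 and with positive values in 6. Sxl was at 11.8, 26.6 and 3.45 TPM in null males 4, 5 and 6 and 13.7, 10.01 and 11.8 TPM in null females (limma adjusted p = 0.996), and its difference of -0.14 became 0.56 without null male 6. The gene tra was at 17.4, 28.0 and 20.6 TPM in null males and 13.6, 13.4 and 19.1 TPM in null females (adjusted p = 0.987). The gene dsx, which encodes the transcription factor at the end of the pathway, held only 0.717 to 1.98 TPM in the null libraries. The gene fru was at 19.98, 30.5 and 20.3 TPM in null males and 37.7, 23.6 and 25.2 TPM in null females, with overlap.

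Isoforms that are made by one sex were read from the structure of the annotated transcripts, as the share of the TPM of the gene. Of 4 such shares, 2 separated the sexes in controls. The non-sex-specific form of tra, with the upstream splice site, held 47.3%, 19.8% and 34.0% in control males 1, 2 and 3 and 15.4%, 3.74% and 6.91% in control females. In null larvae it held 6.45%, 0% and 14.03% in males 4, 5 and 6 and 10.7%, 7.60% and 35.2% in females, so the order of the controls was gone. The dsx transcripts that end in the female exon held 0%, 2.86% and 6.15% in control males and 28.3%, 15.9% and 7.14% in control females. In null larvae they held 23.2%, 0% and 0% in males and 0%, 9.90% and 0% in females, at levels of dsx near or below the 1 TPM taken as detection. The Sxl transcripts with the male exon (24.9% to 71.5% in control females and 28.2% to 35.4% in control males) and the msl-2 transcripts that retain the first intron (0% to 43.0% and 0% to 36.5%) overlapped between the control sexes. They therefore give no check of sex in these files. The labelled sex of null males 4 and 5 could not be checked with any of these forms.

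The MSL complex was tested through 6 genes, Clamp included, and none was called between the null sexes, with a median difference of -0.26 and -0.41 without null male 6. The gene msl-2, the male-limiting subunit, was at 13.99, 13.0 and 13.2 TPM in control males and 5.58, 7.93 and 3.61 TPM in control females, a called difference (log2 1.15, limma adjusted p = 0.0147). In the null larvae it was at 1.79, 2.57 and 5.01 TPM in males 4, 5 and 6 and 3.29, 3.01 and 5.25 TPM in females (log2 -0.28 ± 0.41 SE, adjusted p = 0.987), and the change of its sex difference was not called (adjusted p = 0.0783). For msl-3, a further subunit, the control difference of 1.06 was called (adjusted p = 0.00290) and so was its change to -0.23 in null larvae (adjusted p = 0.0476). Levels of the RNA helicase gene mle were 8.73, 9.25 and 8.13 TPM in null males and 10.8, 5.23 and 8.40 TPM in null females (adjusted p = 0.989).

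X-linked genes were not set apart from autosomal genes between the null sexes beyond the spread of the libraries. The median log2 difference was -0.04 over the 1526 X-linked genes tested, of which none was called, and between 0.02 and 0.04 on 2L, 2R, 3L and 3R. X less autosomes, set against the mean of the null females, was -0.03, -0.01 and -0.15 in null males 4, 5 and 6 and 0.09, -0.06 and -0.03 in null females 4, 5 and 6. Null male 6 was the lowest. In controls, X less autosomes was taken over the genes tested there and set against the mean of the control females. It was -0.25, -0.19 and -0.24 in control males and -0.03, -0.01 and 0.04 in control females. Without the genes higher in control males, the value was -0.09 in null male 6, -0.16 to -0.10 in control males, and -0.04 and -0.01 in null males 4 and 5. Each genotype was again set against its own females. Chromosome 4, with 68 genes tested, had a median of -0.59 in null male 6 and 0.38 in null male 5, with null females from -0.13 to 0.25.

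The share of single transcripts within a gene was tested for 13538 transcripts of genes averaging 3 TPM or more. Between the null sexes 12 transcripts of 8 genes (0.0886%) were called by limma, 5 with a higher and 7 with a lower share in males. The shares of 798 transcripts (5.89%) did not overlap. The called genes were b, Cen, Dcr-2, PlexA, Pi3K92E, Fbl6, CG32816 and CG14440. All of them were read at low levels, at most 9.97 TPM per transcript in a null library. The number of calls was 22 with genes from 1 TPM, 0 with genes from 10 TPM and 0 on the log2 ratio of transcripts, and it was 30 to 52 when single libraries were left out, 37 of them without null male 6. In 3 of the genes (b, Cen and Dcr-2) every library of a sex had a share of exactly 0 or 1, so the spread in their test was taken from other transcripts.

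Dcr-2 (chr2R:17574979-17581525), which encodes the Dicer that makes small interfering RNA in antiviral defence, was the gene with a full switch in both genotypes. Its transcripts RA and RB differ by 3 exonic bases. Null males 4, 5 and 6 held RB alone, at 2.91, 5.66 and 2.15 TPM, and null females 4, 5 and 6 held RA alone, at 5.15, 4.09 and 6.26 TPM. In controls the assignment was the reverse, with RA alone at 8.80 to 9.75 TPM in males and RB alone at 3.56 to 6.44 TPM in females. Null male 6 went with null males 4 and 5 in this switch.

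The other switches had no common order in the controls. Cen, a gene for a protein of the centrosome, was read as RB alone in null males (3.46, 2.66 and 1.24 TPM) and as RA alone in null females (4.60, 3.40 and 5.50 TPM), while control libraries of both sexes held either form. The gene b, which encodes the enzyme that makes beta-alanine, was read as RA alone in null males (4.48, 5.25 and 0.778 TPM) and as RB alone in null females (9.97, 4.04 and 7.20 TPM), and 3 control libraries held both forms. Pi3K92E, the catalytic subunit of the insulin pathway kinase, was read mainly as RB in null males (3.95, 5.92 and 3.54 TPM) and mainly as RA in null females (8.29, 5.12 and 7.89 TPM). PlexA-RB, of a receptor for semaphorins on chromosome 4, was listed at 0 in all null males and at 2.02, 2.98 and 3.75 TPM in null females, but all 6 control libraries held it at 1.28 to 6.21 TPM. The number of reads behind these shares, and how reads common to both forms were assigned, is unknown.

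The genes that make control males differ were read in null male 6 and hardly at all in null males 4 and 5. A male-only list was taken from the controls as the 627 genes with at least 5 TPM in each control male and under 0.5 TPM in each control female. It held 95 X-linked and 2 Y-linked genes. Of the 627, 25 reached 1 TPM in null male 4, 20 in null male 5 and 499 (79.6%) in null male 6, against 15, 28 and 14 in null females 4, 5 and 6. Null males 4 and 5 thus fell within the range of the null females, and null male 6 did not. The summed level of the list was 197, 456 and 2521 TPM in null males 4, 5 and 6, 193, 288 and 294 TPM in null females and 12146 to 15856 TPM in control males. Per gene, null male 6 held a median of 15.6% of the control male mean, with quartiles of 9.22% and 23.7%. In 6 genes it reached that mean and 49 were listed at 0.

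**Figure D3:**
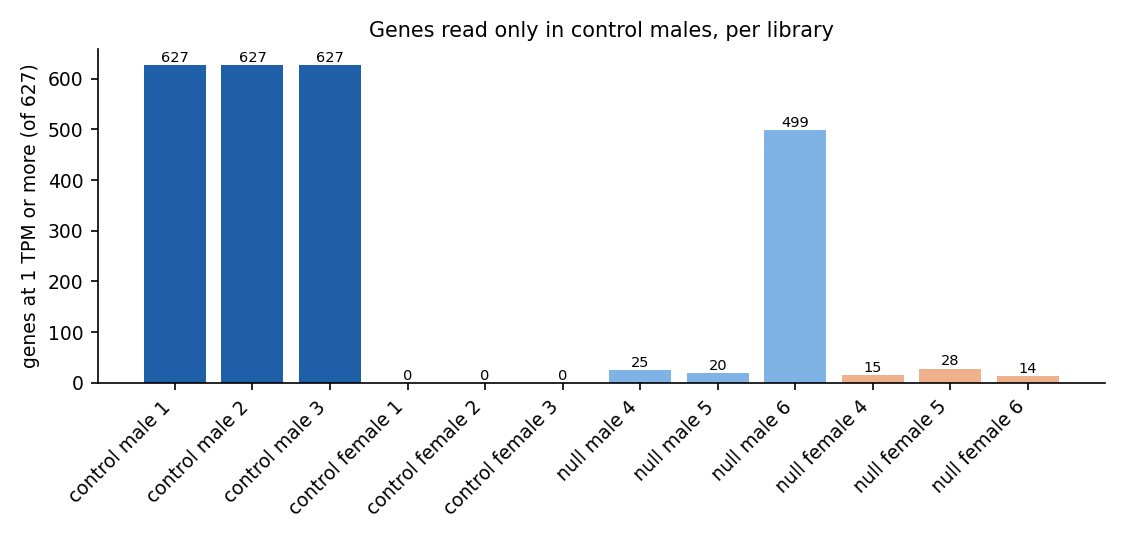
Number of the 627 male-only genes read at 1 TPM or more (y axis) in each of the 12 libraries (x axis). Null male 6 holds 499 of them, while the other 5 null libraries hold 14 to 28, and the control libraries are fixed at 627 or 0 by the rule.

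The testis genes in null male 6 did not all stand at the same distance from the control males. The 13 listed meiotic arrest genes, which encode regulators that turn on the spermatocyte program, were measured through 12, and null male 6 held a median of 61.2% of the control male mean, from 31.6% to 84.4%. Of these, wuc was at 14.8 to 24.2 TPM in control males, 15.4 TPM in null male 6 and 0 in all 8 other null and control female libraries. The gene topi, a zinc finger subunit of the testis meiotic arrest complex, was at 7.07 to 8.57 TPM in control males and 4.64 TPM in null male 6, against at most 1.58 TPM in the other null libraries. The summed level of the list was 2.56, 10.01 and 66.7 TPM in null males 4, 5 and 6 and 1.69 to 6.27 TPM in null females.

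The products of spermatocytes and spermatids were further below the control males, at a median of 15.96% over 23 genes, from 3.19% to 54.3%. Their summed level was 15.6, 20.5 and 567 TPM in null males 4, 5 and 6, 9.93 to 15.3 TPM in null females and 2741 to 4162 TPM in control males. The testis tubulin gene betaTub85D was at 0.359, 2.09 and 23.5 TPM in null males 4, 5 and 6 and 116 to 137 TPM in control males. Mst87F, a sperm tail gene, was at 0, 2.06 and 60.9 TPM in null males and 289 to 634 TPM in control males. Of 21 genes tested, none was called between the null sexes, and in 5 (betaTub85D, twe, Mst84Db, S-Lap1 and S-Lap4) all null males lay above all null females (4.99% over all genes). Of these 5, betaTub85D, S-Lap1 and S-Lap4 passed the expression filter only through null male 6, so the share over all genes is no like comparison. Null males 4 and 5 held 0.512 and 0.445 TPM of S-Lap4, which encodes an aminopeptidase of sperm and was listed at 0 in all null females, and 1.87 and 4.86 TPM of Mst84Db against 0, 0 and 1.52 TPM. These levels were far below the 62.3 to 70.3 and 204 to 350 TPM of control males. All 21 differences were positive and null male 6 was the highest library in 20, with a median difference of 1.45. The member in which it was not the highest was gdl, at 0.994 TPM in null male 6. Most members passed the expression filter only through null male 6, so their sign and rank largely followed from the filter. Without that library the median was 0.35, over the few members that still passed, so the medians cover unlike sets.

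Of 13 genes of the early germ line in the files, 8 averaged 1 TPM or more in control males, and null male 6 held a median of 49.9% of that level, from 4.32% to 265%. Only ovo and stwl passed the expression filter in the null larvae, neither was called, and null male 6 was the highest library in neither. The gene ovo, a transcription factor of the germ line and epidermis, was at 0.707 TPM in null male 6, the lowest of the 6 null libraries, and stwl was at 2.68 TPM, within the range of the others. AGO3, a Piwi protein, was at 0.373 TPM in null male 6 and at 0 to 1.62 TPM in the other null libraries. Among members under the filter, vas, aub and zpg were chosen after their values were seen, as those read mainly in null male 6. It held 3.05 TPM of vas, the RNA helicase of germ cells (4.42 to 5.77 in control males), 3.19 TPM of aub, another Piwi protein (1.505 to 2.71), and 3.87 TPM of zpg, the germ line innexin (0.691 to 2.20). The first of these lay below and the others above all control males. In the other 5 null libraries vas was at 0 to 0.31 TPM, aub at 0 to 0.139 TPM and zpg at 0 to 0.454 TPM. The differentiation factor bam stood out in the other direction, at 1.31 TPM in null male 6 and in null female 6, at most 0.439 TPM in the other null libraries, and 21.3 to 45.9 TPM in control males, but it was also at 11.1 to 36.8 TPM in control females, so bam is not limited to males here. Of the 7 listed genes of the gonad soma, 5 were tested, none was called and null male 6 was the highest library in 1. In 2 of them all null males lay above all null females (4.99% over all genes), at low levels. These were upd1, at 1.79, 1.63 and 1.40 TPM in null males 4, 5 and 6 and 0.608, 0.288 and 1.21 TPM in null females, and bab1. The other tested members overlapped, with zfh1 at 2.51 TPM in null male 6 and 2.92 and 21.2 TPM in null males 4 and 5.

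**Figure D4:**
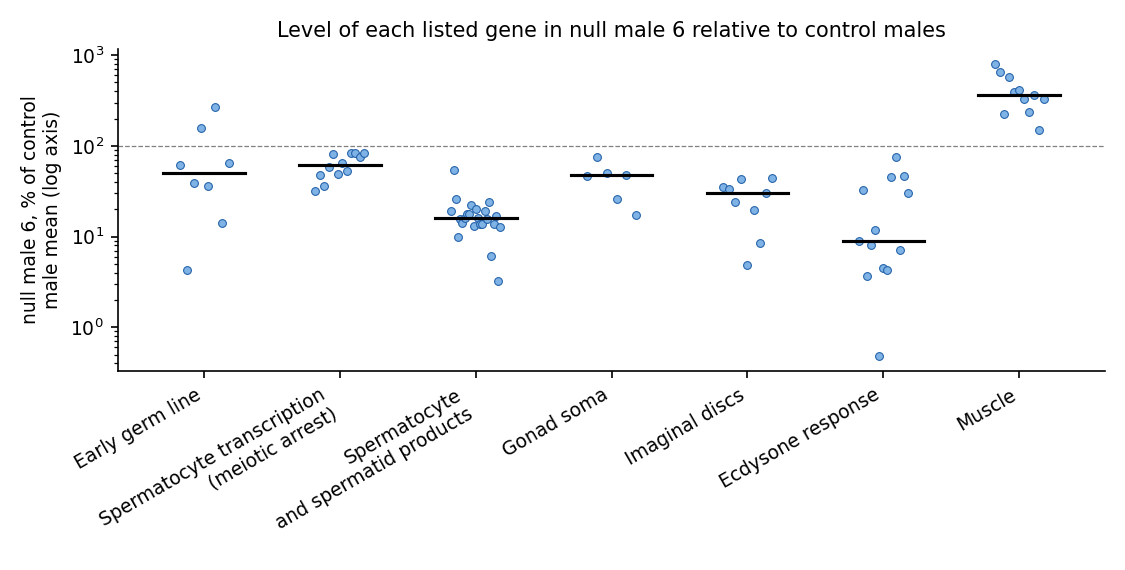
Level of each listed gene in null male 6 as a percentage of the mean of the 3 control males (log y axis), for genes with a control male mean of at least 1 TPM, by gene list (x axis). Points are genes, bars are medians and the dashed line marks 100%. The meiotic arrest genes have a median of 61.2% and the spermatocyte and spermatid products one of 15.96%.

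RNA of the Y chromosome was read in null male 6 alone among the null libraries above trace levels. The 23 Y-linked genes summed to 0.563, 1.46 and 23.1 TPM in null males 4, 5 and 6, 0 to 0.621 TPM in null females and 117 to 155 TPM in control males. FDY was at 6.93 TPM in null male 6, within the 4.91 to 17.1 TPM of control males, CG45764 was at 7.40 TPM (25.9 to 42.6) and CG45765 at 6.09 TPM (60.6 to 68.6). Null males 4 and 5 held only CG45765, at 0.563 and 1.46 TPM, and null female 5 held it at 0.621 TPM. The large fertility factor genes kl-2, kl-3 and kl-5 were at or near 0 in every library, control males included, and give no check of a Y chromosome. For null males 4 and 5, a Y chromosome that is silent in these larvae and the lack of one cannot be told apart.

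Null male 6 also differed from the other null libraries outside the testis. By more than 1 on the log2(TPM + 1) scale, 795 genes were above and 313 genes below all 5 other null libraries. This made 11.5% of the genes tested, against 0.703% to 1.87% in the other libraries. Part of the genes above passed the expression filter only through null male 6. Without it 9171 genes passed, against 9687 to 9812 when another null library was left out. The filter thus raised the count above, and its share of genes higher in control males was partly set by it. Of the 795 genes above, 542 (68.2%) were among those higher in control males, which make up 19.2% of all genes tested, and 253 were not. Of the 313 below, 12 were among them.

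**Figure D5:**
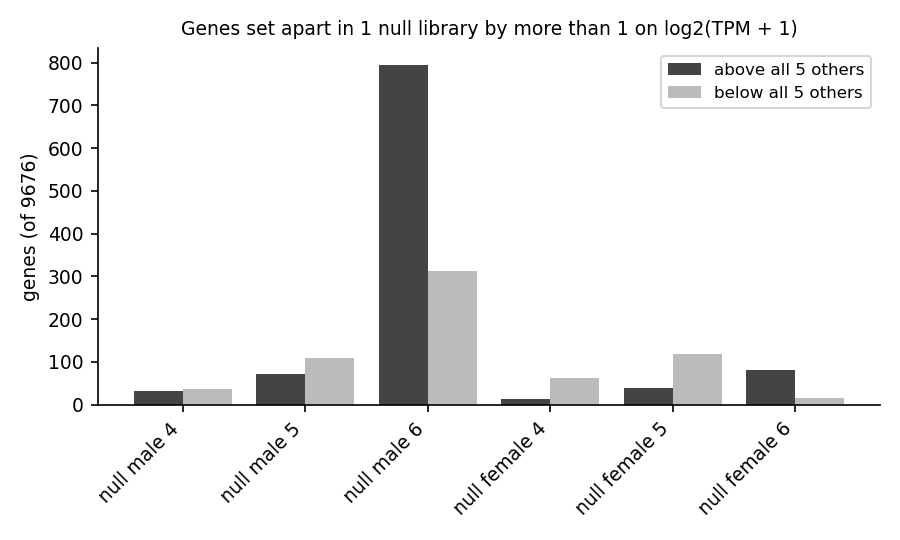
Number of genes, of 9676, that lie more than 1 on the log2(TPM + 1) scale above (dark) or below (light) all 5 other null libraries, for each null library. Null male 6 has 795 and 313, and no other library passes 80 above or 119 below. Some genes passed the expression filter only through null male 6, which raised its count above.

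The largest excess outside the testis was in cuticle genes. Cpr65Ax2 (chr3L:6150058-6150857), of the larval cuticle cluster at 65A, was at 17637 TPM in null male 6, at 232 and 174 TPM in null males 4 and 5 and at 823, 1014 and 179 TPM in null females 4, 5 and 6. Its neighbour and near copy Cpr65Ax1 was at 520 TPM in null male 6 and listed at 0 in all 11 other libraries, so the split between the copies is uncertain. Lcp65Af was at 469 TPM in null male 6 and at most 12.3 TPM in the other null libraries. TwdlO, a cuticle protein of the Tweedle family, was at 685 TPM and at most 95.1 TPM, and CG14377 was at 1135 and at most 15.2 TPM. The 17 genes of the 65A cluster were a set added after its values had been seen. Null male 6 was the highest of the null libraries in 11 of 15 tested, where it was the highest in 28.2% of all genes. Cpr65Ax1 passed the expression filter through null male 6 alone, which fixed its rank. The sum over the cluster was 58615 TPM in null male 6 against 10782 to 16991 TPM in the other 5. This excess was not a feature of control males, in which the sum was 4251 to 8805 TPM. Control females 1, 2 and 3 held 7043, 10329 and 25284 TPM, so control female 3 lay above the other 5 null libraries and below null male 6.

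A ribosomal protein gene was also among the 12 largest excesses. RpL37-2, a copy of RpL37 on 2R, was at 116 TPM in null male 6, 98.4 to 111 TPM in control males, 0 in null males 4 and 5 and 0 to 1.48 TPM in null females. Null male 6 thus stood at the full control level in this gene. CG12699, CG12853 and Mst84Dd were at 68.9, 59.6 and 54.7 TPM in null male 6 and at 314 to 382, 234 to 410 and 167 to 342 TPM in control males, and all were 0 in null males 4 and 5. CG34267 was at 54.4 TPM in null male 6 and 0 in all other libraries of the series.

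Of the 12 genes in which null male 6 was furthest below null males 4 and 5, DptA, CecC, IBIN, IM18 and Mtk have roles in immunity. DptA, a diptericin, was at 401 and 78.9 TPM in null males 4 and 5, 0 in null male 6 and 91.9 to 674 TPM in null females. CecC, a cecropin, was at 287, 154 and 2.29 TPM in null males 4, 5 and 6 and 153 to 359 TPM in null females. IBIN, a short peptide induced on infection, was at 1312, 658 and 13.2 TPM in null males and 1428, 5378 and 4276 TPM in null females, with 11.5 to 92.8 TPM in controls. IM18 and Mtk were listed at 0 in null male 6 and were at 61.1 and 67.1 TPM and at 36.6 and 45.3 TPM in null males 4 and 5. For IBIN, IM18 and Mtk null male 6 lay within the range of the controls, and for DptA and CecC below it. The others were CG43133 (3436, 5332 and 121 TPM in null males 4, 5 and 6), Obp49a, an odorant binding protein (524, 1616 and 22.1 TPM), Cyp4e3, a cytochrome P450 (161, 53.5 and 1.58 TPM), CG12491, CG32726, CG14022 and CG33462.

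Markers of somatic tissues and of developmental time were examined in the same libraries, and their part in the difference of null male 6 was not tested. The 9 salivary gland genes summed to 15010, 10441 and 4024 TPM in null males 4, 5 and 6 and to 7543, 8128 and 14064 TPM in null females, against 82935 to 153528 TPM in controls. Sgs7, a glue gene, was at 157, 70.4 and 7.49 TPM in null males and 4.65, 12.4 and 1941 TPM in null females. Null male 6 had the lowest sum, while for Sgs7 null female 4 was lower. Lsp2, a serum protein gene of the fat body that rises late in larval life, was at 30.001, 1224 and 16.5 TPM in null males and 78.8, 422 and 2580 TPM in null females. The genes ng1, ng2 and ng3, which the salivary gland expresses before the glue genes, were at 936 to 8646 TPM in null males. Controls held ng1 and ng2 at 24.8 to 254 TPM and ng3 at 698 to 2445 TPM. Apart from ng3 in null male 6, all null values of these genes lay above the controls. The salivary gland sum thus mixes genes higher and genes lower in null larvae than in controls. Of 13 ecdysone response genes in the files, 9 were tested, none was called and null male 6 was the lowest library in 5, with a median difference of -0.55 over the list and -0.23 without it. Eip75B, an early ecdysone gene, was at 10.8, 14.3 and 6.23 TPM in null males and 18.8, 9.64 and 18.5 TPM in null females.

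The ecdysone synthesis genes had 4 tested members, of which none was called. All 4 differences were negative, at a median of -0.82 and -0.78 without null male 6, and in 2 all males lay below all females (2.45% over all genes). One of these was shd, the last hydroxylase of the pathway, at 13.0, 18.03 and 13.3 TPM in null males and 29.2, 25.2 and 22.2 TPM in null females (log2 -0.76 ± 0.29 SE, limma adjusted p = 0.987). The other was dib, at 7.23, 5.19 and 4.59 TPM in males and 8.80, 7.64 and 9.14 TPM in females.

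In the remaining lists no gene was called, and the null sexes overlapped in every tested gene but 1, of the heat shock list. All 11 muscle genes were tested, with a median difference of -0.06 (0.06 without null male 6), and null male 6 was the lowest in 5. Act57B was at 5434, 8240 and 7087 TPM in null males and 11496, 6944 and 6291 TPM in null females. The 14 midgut genes had a median of 0.01 (-0.10 without null male 6, over the members that still passed the filter). Null male 6 was the highest library in 6 of them (28.2% over all genes) and the lowest in 1. It held betaTry at 341 TPM against 2.35 to 35.8 TPM in the other null libraries, and Jon25Bi at 410 TPM against 8.39 to 57.2 TPM. Mal-A6, among these 6, passed the filter only through null male 6. Jon99Ciii, a digestive protease, varied from 2232 to 11558 TPM with null male 4 and null female 4 at the top. The 10 housekeeping genes had a median of -0.25 (-0.09 without null male 6), with RpL32 at 4368 to 6646 TPM. The 5 neuron genes tested had a median of 0.08, the 7 imaginal disc genes -0.36, the 8 heat shock genes -0.15, the 6 haemocyte genes -0.54, the 7 fat body genes -0.72 and the 9 epidermis and cuticle genes -0.06. Without null male 6 these medians were 0.20 for neurons, -0.12 for imaginal discs, -0.31 for heat shock, -0.22 for haemocytes, -0.33 for fat body and -0.69 for epidermis and cuticle, so several of them moved with that library. NimC1, a phagocytosis receptor of haemocytes, was at 27.0, 74.9 and 8.26 TPM in null males 4, 5 and 6 and 35.7 to 42.2 TPM in null females.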

How the data were processed

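RNA of whole L3 larvae was sequenced by the authors as poly-A selected, paired-end libraries, and the deposited values are TPM per transcript made by the authors with Salmon. The submitters' processing notes name FastQC, Trim Galore, cutadapt, Bowtie2 and build dm6, with versions not given in the sources used here. TPM of a library sum to 1000000, so depth is unknown and no count test or counting interval was possible. Nothing says that libraries came from separate crosses, so p-values measure the spread between these libraries.

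Transcripts were assigned to genes with Ensembl BDGP6.54 (29926 matched, 10 left out) and summed. Genes averaging 1 TPM or more over the libraries of a fit were tested on log2(TPM + 1) with limma 3.58.1 in R 4.3.3 (two-sided, trended variance), with Benjamini-Hochberg adjustment over all genes tested and calls at 0.05. A fold change on this scale understates that of low genes. The main fits used the 6 libraries of a genotype, and the change of the sex difference used all 12. Isoform shares were the TPM of a transcript divided by that of its gene, for genes with at least 2 transcripts and an average of 3 TPM or more. The tests were checked on simulated data. Other steps used Python 3.11.15, pandas 2.3.3 and matplotlib 3.10.9.

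Genes were named by rule: the pathway genes Clamp, Sxl, tra, dsx, fru and msl-2, the 12 called genes with the largest difference in each direction without overlap (filled by smallest p), the 12 genes highest and the 12 lowest in null male 6 against null males 4 and 5, the most abundant and the called genes of each list, those called without null male 6, and the 6 largest changes in each direction. Names outside the rule were chosen after their values were seen. The libraries, lists and tests were chosen with earlier results of these data known.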

Additional observations from a re-analysis of the deposited data

Results flagged for a closer look

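The sex difference differed between null and control larvae in 1639 genes by the limma test of the change, as described above. The genes named for the largest change toward females had fitted changes of -8.09 (BaraA2), -7.57 (Mst84Da), -6.87 (CG31226), -6.67 (e), -6.55 (CG7924) and -6.37 (CG46059) on the log2(TPM + 1) scale. BaraA2, Mst84Da and, among the changes toward males, CG43182 are listed at 0 in every library of a group. Their fitted values thus depend on the pseudocount and are no measure of fold. Toward males the changes were 4.44 (CG43182), 3.78 (CG4362), 3.32 (CG10962), 3.21 (CG7798), 2.91 (LysS) and 2.83 (AsnS).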

How the results depend on the processing

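The number of genes called between the null sexes was 2 in place of 1 with library weights and with all 12 libraries in the fit, and 1 to 2 when single libraries were left out. CG42486 was called with limma library weights (log2 difference -3.99, adjusted p = 0.0229) and with all 12 libraries in the fit (-3.72, adjusted p = 0.0412), and nol was called without null male 6 (-7.56, adjusted p = 0.0148). The change of the sex difference was called for 416 genes with a pseudocount of 0.1, for 780 with an average of 5 TPM or more and for 2895 with library weights, and for 1124 to 2105 when single libraries were left out. Isoform calls by limma numbered 22 from 1 TPM, 0 from 10 TPM (305 at an unadjusted p under 0.05) and 0 on the log2 ratio (539), and 30 to 52 when single libraries were left out. The total of calls in controls stayed within 1.5 times under every alternative run, but the 305 genes lower in males became 659 with median-of-ratios scaling, 471 with library weights, 183 with all 12 libraries and 139 to 495 when single libraries were left out. Among named genes not called between the null sexes, Mst84Da changed sign to -0.15 with a pseudocount of 0.1 and -0.72 with library weights, CG31226 to -0.19 with library weights, and leaving out single libraries gave -1.24 to 1.65 for Mst84Da, -0.76 to 0.56 for Sxl and -0.22 to 0.32 for AsnS. X less autosomes between the null sexes was -0.06 and, in a setting chosen after seeing the data, -0.05 without genes higher in control males.

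The libraries were not treated as paired by replicate number: the deviations of same-numbered males and females had correlations of -0.0204, -0.0308 and -0.0571 in null larvae and of 0.257, -0.0644 and 0.142 in controls. With the replicate block, 1 gene was called between the null sexes, 3539 in controls, 1529 for the change and 6 isoforms in place of 12. With 3 libraries a group, 1 of which stands apart, sex differences in null larvae may be missed, large ones included. Dro (log2 difference -4.31) and CG17105 (-4.67) had null sexes without overlap, and neither was called (limma adjusted p = 0.987 each).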

Other observations

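Some genes of the male-only list were read in null larvae of both sexes. CG14610 (chr3R:7143729-7144295) was at 11.2 to 19.3 TPM in control males and 0 in control females, but at 105, 397 and 6.90 TPM in null males 4, 5 and 6 and at 136, 193 and 231 TPM in null females. It gave the larger part of the summed level of the list in the null libraries other than null male 6. CG31826 was at 5.17 to 15.1 TPM in control males and at 2.98 to 8.24 TPM in all 6 null libraries. CG7423, on the X, was at 6.32 to 15.9 TPM in control males and at 15.2 TPM in null female 4. CG31788 was at 9.05 TPM in null male 4, and CG30087 and CG33060 were at 6.34 and 5.26 TPM in null male 5. CG43702 was at 7.15 TPM in null female 6. These were all genes of the list with 5 TPM or more in a null library other than null male 6.

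The null libraries differed from each other within a sex in genes of developmental time. Null female 6 and, to a lower degree, null male 4 held more of the glue genes Sgs3 (821 and 51.5 TPM) and Sgs4 (534 and 22.0 TPM) than the other null libraries, which had at most 23.8 and 4.65 TPM.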
